A study of Mus musculus with 2 samples.

Results

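The genes described here carry the insulin signal from the cell surface of the hepatocyte to the nucleus: the insulin receptor Insr, its docking proteins Irs1 and Irs2, the PI3K regulatory subunit Pik3r1, the kinase Pdpk1 (PDK1), the kinases Akt1 and Akt2, and the transcription factors Foxo1 and Foxo3. They were chosen by name, 9 genes of the 33224 gene symbols in the table, and each was found as a single locus. Liver RNA of male C57BL/6 mice 48 hr after partial hepatectomy (PH), the surgical removal of most of the liver, was sequenced as 1 library of wild type (WT) and 1 library of PPARbeta-null (KO) mice. The KO mice lack the nuclear receptor PPARβ, encoded by Ppard, and the WT mice are its control. Both groups had the operation, and no liver without it was analysed here. Age is given as 4 months for each sample, as 3 to 5 months in the growth protocol and as 3 months in the design text. Whether a library held the RNA of 1 mouse or of a pool is not given in the sources used here.

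When insulin binds its receptor, the receptor phosphorylates the Irs proteins, which recruit PI3K to the membrane. The lipid that PI3K makes brings Pdpk1 and Akt together, Pdpk1 phosphorylates Akt, and Akt phosphorylates FoxO factors so that they leave the nucleus. In liver this route lowers glucose production and raises lipid synthesis, and FoxO factors in the nucleus do the opposite. The study looked at PDK1 and Akt as proteins, and the question addressed here is how the mRNA of each step compared between the genotypes.

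Levels are in FPKM, a count of sequenced fragments divided by transcript length and by library size, so that genes can be set side by side. With 1 library per genotype, no value has an error between mice and no test of genotype was possible. The 95% intervals given below cover counting error only, from fragments estimated at 0.0191 FPKM each on a transcript of 1 kb in both libraries. An estimated 563 to 8885 fragments stood behind each of the 9 genes in each library, taking the longest annotated transcript. With the median transcript length the estimates were 563 to 3507, and Insr in WT went from 6145 to 1100. The deposited table names the libraries by different lanes, so lane and genotype cannot be told apart. The 11723 genes that averaged 1 FPKM or more over the libraries are called expressed genes below. Of these, 75.6% were lower in KO, and the median of their log2 KO/WT was -0.24 with 0.1 FPKM added to each value, beside 7 of the 9 genes that were lower and 2 that were higher. Ratios below are given as deposited, and those of the 9 genes whose direction turns are also given after centring on that median. Ppard itself measured 2.67 FPKM in WT against 2.42 in KO. This locus total did not tell the libraries apart (KO/WT 0.906, interval 0.791 to 1.04, and 1.07 after centring). Hepatocyte markers were abundant in both libraries, among them Apoa2 at 5080 and 5916 FPKM and Hnf4a at 172 and 193, while the locus of Alb had a failed estimate.

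Of the 9 genes, 2 were lower in KO by more than 1.5-fold, Foxo3 and Akt1, and none was higher by that much. Across all expressed genes, 19.9% were lower by more than 1.5-fold and 4.2% were higher, so the count of 2 in 9 was close to this background. The members nonetheless spread over a wide range. Foxo3, Akt1, Foxo1 and Pik3r1 were lower in KO by 1.45-fold to 1.81-fold. Insr, Pdpk1 and Akt2 were lower by at most 1.12-fold as deposited and slightly higher after centring, and Irs1 and Irs2 were higher in KO. For the 9 genes together the median log2 KO/WT stood at -0.16, against -0.24 for all genes. After centring, 1 gene was lower by more than 1.5-fold (Foxo3) and 1 was higher (Irs2), with 12.1% of all genes lower and 7.3% higher by the same rule.

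**Figure D1:**
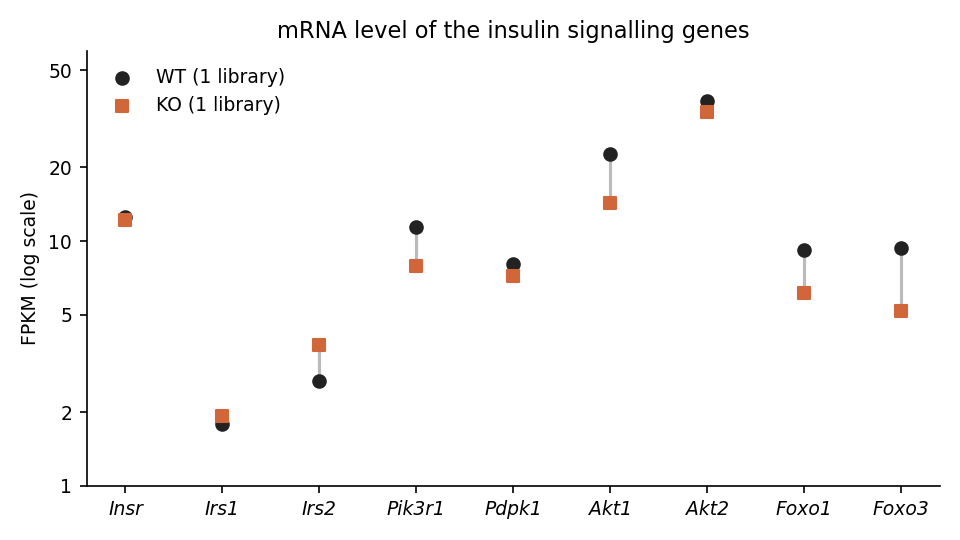
FPKM of the 9 genes on a log scale in the WT library (black circles) and the KO library (orange squares), 1 library each. Akt2 and Akt1 had the highest levels, Irs1 and Irs2 the lowest, and the gaps between genotypes were widest for Foxo3, Akt1, Foxo1, Pik3r1 and Irs2.

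The insulin receptor had nearly the same mRNA level in both livers. Insr (minus strand of chromosome 8, locus 3150595 to 3280387 on NCBI37) measured 12.5 FPKM in WT against 12.2 in KO. The KO/WT ratio was 0.973, and its interval of 0.938 to 1.01 included 1, so a difference as deposited was not detectable within counting error. After centring the ratio was 1.15, on the other side of 1, and 72.1% of expressed genes had a lower ratio than Insr. Igf1r, the receptor of the related growth factor IGF-1, measured 0.21 FPKM in WT against 0.134 in KO, so Insr mRNA was 59.8 times the level of Igf1r mRNA in WT (interval 44.7 to 81.6) and 90.9 times in KO (interval 64.1 to 138). These intervals overlap.

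Irs2 and Irs1 had the highest KO/WT ratios of the 9 genes, although their levels were the lowest in both libraries. Irs2 (minus strand of chromosome 8, locus 10984679 to 11054541), the docking protein whose gene FoxO factors switch on when insulin is low, measured 2.67 FPKM in WT against 3.76 in KO. This was a KO/WT ratio of 1.41 (interval 1.26 to 1.57), and 94.9% of all genes had a lower ratio. Irs1 (minus strand of chromosome 1, locus 82229676 to 82287991) measured 1.78 FPKM in WT against 1.93 in KO. Its ratio of 1.09 had an interval of 0.989 to 1.19, so that a difference as deposited was not detectable within counting error. Centring put both further from 1, at 1.66 for Irs2 and 1.28 for Irs1. The Irs2/Irs1 ratio of FPKM within a library, which no scaling between libraries can change, was 1.5 in WT (interval 1.35 to 1.67) and 1.94 in KO (interval 1.77 to 2.14). The intervals of the libraries did not overlap. Together the docking proteins had 4.45 FPKM in WT and 5.69 in KO.

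Both values have limits of position. The exons of Irs1 share 2822 bases with Gm9747, a gene annotated on the opposite strand at 1.04 FPKM in WT against 1.36 in KO of its own. Counting by strand is not stated, so reads of this stretch cannot be told apart between both genes and the Irs1 values are uncertain. The locus of Irs2 is wider than its annotated gene (10986980 to 11008458) and overlaps the non-coding gene 9530052E02Rik over 162 exon bases, whose FPKM was listed at 0 in WT and was 0.0335 in KO.

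The promoters of Irs1 and Irs2 are shown because these genes had the highest ratios of the 9 and because FoxO factors are known to bind the Irs2 promoter. RefSeq windows on GRCm38.p6, from 250 bases before to 50 after the annotated start, were found for 8 of the 9 genes, all but Insr. Capitals mark the hexamer CACGTG (an E-box) and CAAAACA, a FoxO element, here read on the reverse strand as TGTTTTG. Each stretch covers the 150 bases before the start, on the minus strand, for Irs1 at chr1:82291440-82291589 and for Irs2 at chr8:11008930-11009079.
Irs1: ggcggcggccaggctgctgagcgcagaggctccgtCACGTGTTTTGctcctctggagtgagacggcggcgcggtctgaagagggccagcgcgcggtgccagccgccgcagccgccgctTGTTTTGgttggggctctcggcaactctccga
Irs2: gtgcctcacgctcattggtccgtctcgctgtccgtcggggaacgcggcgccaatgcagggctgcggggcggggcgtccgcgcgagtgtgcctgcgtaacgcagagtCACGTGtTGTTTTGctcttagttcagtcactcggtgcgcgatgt

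Both promoters held an E-box next to a FoxO element. In Irs1 the elements overlap and begin 115 and 111 bases before the start, with a further CAAAACA match at 32 bases. In Irs2 they begin 44 and 37 bases before the start. The longest runs that the windows share exactly are GTCACGTGTT and TGTTTTGCTC, each of 10 bases. Each was found on either strand in 25 of 32851 windows (0.0761%), and the windows with both were those of Irs1 and Irs2, from which the runs were read. CAAAACA was found in 6.28% of all windows, CACGTG in 7.15% and both in 0.408%. Among the other members with a window, none held CAAAACA or CACGTG. The E-box and the shared runs were searched for after the sequences had been seen, and a match is a description of letters.

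Pik3r1, which encodes the main regulatory subunit of PI3K and holds the catalytic subunit in check until an Irs protein binds, was lower in KO. It lies on the minus strand of chromosome 13 (102450716 to 102538172) and measured 11.5 FPKM in WT against 7.90 in KO, 1.45-fold lower (interval 1.38 to 1.52). The second regulatory subunit, Pik3r2, measured 5.52 FPKM in WT against 4.82 in KO. The Pik3r1/Pik3r2 ratio was thus 2.08 in WT (interval 1.93 to 2.24) and 1.64 in KO (interval 1.51 to 1.77), and these intervals did not overlap. The ubiquitous catalytic subunits kept the same proportion. Pik3ca measured 6.79 FPKM in WT against 5.36 in KO, Pik3cb 3.94 and 3.22, and the Pik3ca/Pik3cb ratio was 1.72 in WT (interval 1.60 to 1.85) and 1.67 in KO (interval 1.54 to 1.8).

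Pdpk1, the kinase that phosphorylates Akt in its activation loop, differed little at the mRNA level. At chromosome 17 (minus strand, 24210647 to 24287891) it measured 8.03 FPKM in WT against 7.18 in KO. The KO/WT ratio was 0.894 (interval 0.848 to 0.942), and after centring it was 1.05.

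The Akt genes differed from each other. Akt1, the broadly expressed form (minus strand of chromosome 12, 113892032 to 113913095), measured 22.7 FPKM in WT against 14.4 in KO, 1.58-fold lower in KO (interval 1.5 to 1.67). Akt2, the form known for insulin action in liver (plus strand of chromosome 7, 28376571 to 28425845), had 37.3 in WT and 33.9 in KO, 1.10-fold lower (interval 1.07 to 1.14). Centring turned the direction of Akt2, to a KO/WT ratio of 1.07, and left Akt1 lower in KO at 1.34-fold. Akt2 mRNA exceeded Akt1 mRNA 1.64-fold in WT (interval 1.58 to 1.71) and 2.36-fold in KO (interval 2.25 to 2.48). Of the FPKM of Akt1 and Akt2 together, which was 60.1 in WT and 48.2 in KO, Akt2 made up 62.1% in WT and 70.2% in KO.

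The Akt1 promoter is shown because it was the sole member window with the other FoxO element searched, GTAAACA, which occurs in 3.65% of all windows. It is read on the reverse strand as TGTTTAC, in capitals, and begins 161 bases before the upstream of the 2 annotated starts. The stretch is the 200 bases before that start, on the minus strand at chr12:112674885-112675084.
Akt1: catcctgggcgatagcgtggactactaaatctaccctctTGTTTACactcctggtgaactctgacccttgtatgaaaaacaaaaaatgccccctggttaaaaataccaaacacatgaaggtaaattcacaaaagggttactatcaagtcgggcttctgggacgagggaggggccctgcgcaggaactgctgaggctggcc

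None of the 14 windows of the members held the direct repeat DR1 (AGGTCA, any base, AGGTCA), the exact form of the element that PPARs bind with RXR, which was found in 13 of 32851 windows (0.0396%). These letters are rare in windows of 300 bases, and nothing about binding follows from their absence there.

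The FoxO factors at the end of the route were both lower in KO. Foxo3 (minus strand of chromosome 10, 41901647 to 41996561) measured 9.38 FPKM in WT against 5.19 in KO. It was 1.81-fold lower (interval 1.71 to 1.92), the largest difference among the 9 genes as deposited, and 11.4% of all genes had a lower ratio. Foxo1, the main FoxO factor of insulin-regulated glucose production (plus strand of chromosome 3, 52072259 to 52154031), measured 9.19 FPKM in WT against 6.13 in KO. Its KO/WT ratio of 0.667 (interval 0.628 to 0.709) lay just inside the 1.5-fold limit, and its exons share 674 bases with RP24-337A16.1 on the opposite strand. After centring, Foxo3 was 1.53-fold and Foxo1 1.27-fold lower in KO, and the largest difference was that of Irs2, which was 1.66-fold higher. In WT the levels of both did not differ beyond counting error, with a Foxo1/Foxo3 ratio of 0.98 (interval 0.93 to 1.03). In KO the ratio was 1.18 (interval 1.11 to 1.26). Foxo4 measured 6.67 FPKM in WT against 5.56 in KO.

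**Figure D2:**
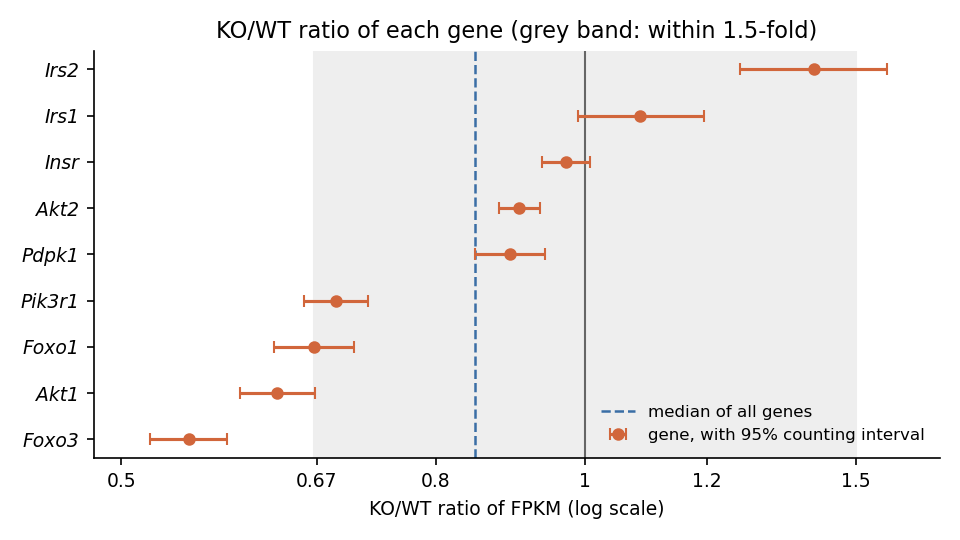
KO/WT ratio of FPKM for the 9 genes on a log scale, in order, with 95% intervals of counting error from 1 library per genotype. The grey band spans ratios within 1.5-fold and the dashed line is the median of all genes. Foxo3 and Akt1 lay outside the band on the low side, and Irs2 was the highest at 1.41.

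In order of level, Akt2 and Akt1 led in both libraries, followed by Insr and Pik3r1. The next 3 places changed hands. In WT the order was Foxo3, Foxo1 and Pdpk1, and in KO it was Pdpk1, Foxo1 and Foxo3. Irs2 and Irs1 came last in both. Irs1 mRNA was low for an expressed gene, since 11.5% of expressed genes had a lower mean, against 83% for Akt2.

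**Figure D3:**
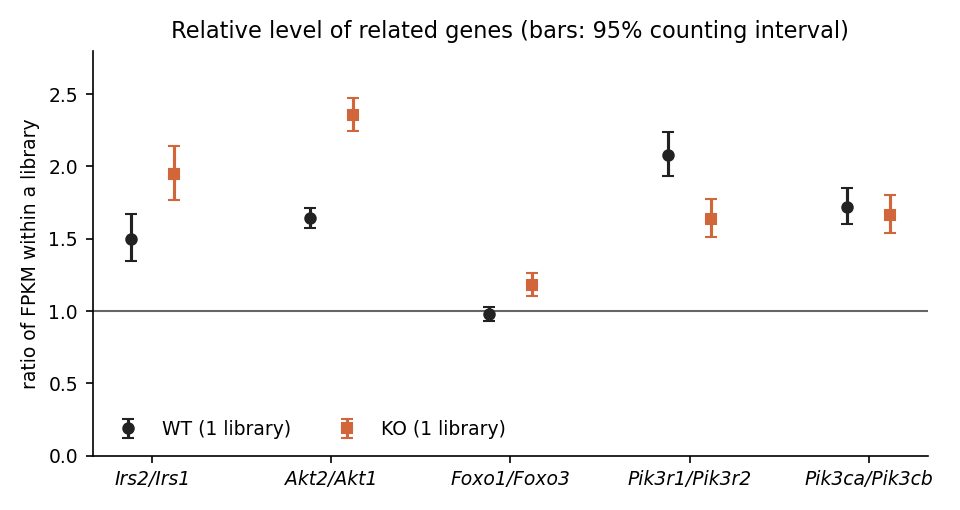
Ratio of FPKM between related genes within the WT library (black circles) and the KO library (orange squares), with 95% intervals of counting error. Of the 5 pairs plotted, Akt2/Akt1 had the widest gap, at 1.64 in WT and 2.36 in KO, and the intervals of Pik3ca/Pik3cb overlap. Insr/Igf1r is not plotted.

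Most markers of other liver cells were lower in KO, as were 75.6% of all expressed genes. Across all expressed genes, 19.9% were lower by more than 1.5-fold as deposited and 12.1% after centring. All 5 endothelial markers (Pecam1, Cdh5, Kdr, Stab2 and Lyve1) were lower in KO by more than 1.5-fold, and their levels summed to 26.6 FPKM in WT and 15.7 in KO. After centring, 3 of the 5 were still past that limit. Of 5 macrophage markers, 4 were lower by more than 1.5-fold, and 3 after centring (summed FPKM 37.3 and 24.9). Marco was higher in KO, with a ratio of 1.12. Of 5 stellate cell markers, 2 were lower by more than 1.5-fold, namely Lrat and Col1a1, and 1 after centring (78.2 and 53.5). Des alone of these was above 1 after centring, at 1.06. Among the cholangiocyte markers Krt19, Krt7, Epcam and Sox9 the sum was 5.33 in WT and 3.03 in KO. Sox9 alone of these was above 1 after centring, at 1.08. Defining markers of muscle (Ckm, Mb) and pancreas (Prss1, Cpa1, Ins2) were listed at 0 in both libraries, although Cela1 of the pancreas list was at 8.77 and 18.8. The leukocyte markers Ptprc, Cd3e and Cd79a summed to 0.975 and 0.661, and the adipocyte markers Adipoq, Plin1 and Cfd to 0.362 in WT and 0 in KO, with Lep at 0 in both. Among the hepatocyte markers, Cps1 was lower by more than 1.5-fold (1597 in WT and 743 in KO), and the 6 measured summed to 15750 and 16800. None of the 9 genes was measured by cell type, and the part of other liver cells in their KO/WT ratios was not tested. In bulk liver, fewer cells of a type and less RNA per cell cannot be told apart.

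The rest of the pathway was read from lists of 116 genes, 115 of which are in the table and 95 of which were expressed. Outside the FoxO target and insulin-induced genes, 60 genes were expressed. Of these, 8 (13.3%) were lower in KO by more than 1.5-fold and 2 (3.33%) higher, against 19.9% and 4.2% of all expressed genes, with a median log2 KO/WT of -0.22 beside -0.24 for all genes. After centring, 4 of the 60 were lower and 4 higher by that limit, beside 12.1% and 7.3% of all expressed genes.

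Among 7 receptors and adaptors, Gab1, a docking protein that also serves other growth factor receptors, was the sole one past 1.5-fold, at 2.06 FPKM in WT against 1.04 in KO. This was 14.3% of the list, against 19.9% of all expressed genes lower by that limit. Grb14, an inhibitor of the insulin receptor and the most abundant of the list by its mean over both libraries, had 34.8 in WT and 24.4 in KO. Sh2b1, an adaptor that enhances receptor signalling, had the highest ratio of the list, with 10.1 and 11.6.

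Class II PI3K genes went both ways among the 8 PI3K subunits. Pik3c2g, a form found mainly in liver, was 2.58-fold higher in KO (interval 2.28 to 2.91), at 1.64 FPKM in WT against 4.24, and 99.2% of all genes had a lower ratio. Pik3c2b was 1.89-fold lower, from 2.06 to 1.09. Pik3c2a, the most abundant, stayed at 8.47 in WT and 8.44 in KO. No other subunit of the list passed 1.5-fold. Of the 8, 12.5% were thus lower and 12.5% higher, against 19.9% and 4.2% of all expressed genes.

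The 6 lipid phosphatases act on the product of PI3K and related lipids. As deposited, 1 (16.7%) was lower and 1 (16.7%) higher in KO by more than 1.5-fold, against 19.9% and 4.2% of all expressed genes. After centring, 0 were lower and 1 was higher, against 12.1% and 7.3%. Inppl1 (SHIP2) was 1.64-fold lower in KO, at 9.21 FPKM in WT against 5.60. Inpp4a was 1.71-fold higher (interval 1.60 to 1.83), with 4.88 in WT and 8.35 in KO.

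Of 15 regulators and relatives of Akt, 2 (13.3%) were lower in KO by more than 1.5-fold and none was higher as deposited. The shares over all expressed genes were 19.9% and 4.2%. After centring, 1 was lower (Sgk3) and 2 were higher (Trib1 and Sgk2), beside 12.1% and 7.3% of all expressed genes. The 2 lower genes were Sgk3, an Akt-like kinase, at 3.95 FPKM in WT against 2.13 in KO, and Mlst8, a subunit of both mTOR complexes, with 3.35 and 2.11, which like Trib1 is named after its value was seen. Sgk2, another kinase of that family, had the highest ratio of the list, with 21.4 in WT and 30.4 in KO. Hsp90ab1, a chaperone of Akt and the most abundant of the list, had 380 and 338.

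Of 15 Akt substrates and mTORC1 genes, 2 (13.3%) were lower in KO by more than 1.5-fold and 0 were higher. The shares over all expressed genes were 19.9% and 4.2%. Eif4ebp1, the translation repressor that mTORC1 inactivates, was 1.93-fold lower in KO (33.4 in WT and 17.3 in KO). Mdm2, the ubiquitin ligase of p53, was the other past 1.5-fold and is named after its value was seen (23.4 and 14.5), and its call was lost after centring, at 1.37-fold lower. Eif4ebp2, a second translation repressor of the same family and the most abundant of the list, had 51.0 and 46.5. Rps6kb2, an S6 kinase, had the highest ratio, with 6.71 and 8.11. All 9 expressed FoxO relatives and partners were lower in KO as deposited, beside 75.6% of all expressed genes. Their median log2 KO/WT was -0.31, against -0.24 for all genes. By more than 1.5-fold, 11.1% of them were lower, against 19.9% of all expressed genes. Ywhaz, one of the proteins that hold phosphorylated FoxO in the cytoplasm, was the sole one past 1.5-fold (72.3 in WT and 47.4 in KO). Its call was lost after centring, at 1.29-fold lower, and with equal sums of FPKM. Ywhae, the most abundant, had 123 and 98.9. Sirt1, a deacetylase of FoxO with the highest ratio of that list, had 4.79 and 4.47. After centring, Sirt1, Crebbp and Ywhab were 3 of the 9 above 1, at 1.02 to 1.10.

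Genes that FoxO factors are known to activate went both ways, and the share of them lower in KO was near that of all genes. Of 23 expressed FoxO target genes, 6 (26.1%) were lower in KO by more than 1.5-fold and 3 (13%) were higher, against 19.9% and 4.2% of all genes, and their median log2 KO/WT was -0.06. Of the 3 higher genes, Igfbp1, a secreted binding protein of IGF that insulin represses, was 3.33-fold higher in KO (108 in WT and 360 in KO). Pdk4, a kinase that shuts off pyruvate dehydrogenase, was 2.58-fold higher (1.99 and 5.14), and G6pc, which releases glucose from glucose-6-phosphate, was 1.97-fold higher (55.3 and 109). Pck1, another FoxO target of the list, differed little between the genotypes (852 FPKM in WT against 818 in KO). Its KO/WT value stood at 0.96 as deposited and at 1.13 after centring. G6pc and Pck1 are named after their values were seen.

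Among the 6 lower genes, Bcl6, a transcriptional repressor, was 1.88-fold lower in KO (6.42 in WT and 3.42 in KO). Cdkn1b (p27), an inhibitor of cyclin-dependent kinases, was 1.84-fold lower (9.28 and 5.04). The others were the sestrins Sesn1 and Sesn2, the amino acid metabolism regulator Klf15 and the coactivator partner Cited2, between 1.52-fold and 1.78-fold lower, and these and Cdkn1b are named after their values were seen. Apoc3, an apolipoprotein and the most abundant of the list, had 1971 in WT and 2025 in KO. After centring, 3 of the 23 genes were lower by more than 1.5-fold (Bcl6, Cdkn1b and Sesn2) and 5 were higher. The shares over all expressed genes were then 12.1% and 7.3%. Sesn1, Klf15 and Cited2 lost their call.

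The Igfbp1 promoter, the textbook insulin response sequence, is shown for comparison with those of Irs1 and Irs2. It holds CAAAACA on the forward strand, in capitals, 108 bases before the start, in the 200 bases before the start at chr11:7197587-7197786 on GRCm38.p6.
Igfbp1: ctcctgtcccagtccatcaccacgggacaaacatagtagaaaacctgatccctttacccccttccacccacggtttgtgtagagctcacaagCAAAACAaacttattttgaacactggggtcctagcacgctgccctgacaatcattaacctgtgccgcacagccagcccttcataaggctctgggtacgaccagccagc

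The genes that insulin induces in liver had the largest differences of any list. Of 12 that were expressed, 10 (83.3%) were lower in KO by more than 1.5-fold and 1 was higher, against 19.9% and 4.2% of all expressed genes. By more than 2-fold, 8 were lower, against 8.69% of all expressed genes. The median log2 KO/WT was -1.64. After centring, 10 were lower and 2 higher by more than 1.5-fold, beside 12.1% and 7.3% of all expressed genes. Thrsp, a lipogenic protein, had the lowest ratio, at 156 FPKM in WT against 3.95 in KO. Insig1, which retains the SREBP complex in the endoplasmic reticulum, was 6.53-fold lower (205 and 31.3). Scd1, the desaturase of stearate and the most abundant of the list, was 2.99-fold lower (628 and 210), and Elovl6, a fatty acid elongase, 3.29-fold lower (23.5 and 7.14). Acaca, which makes malonyl-CoA, was 2.43-fold lower (13.2 and 5.43), and Srebf1, Fasn and Acly were each lower by 4.65-fold to 5.21-fold. Egr1, an immediate early factor, was 3.55-fold higher in KO (30.2 and 107). Pklr, the pyruvate kinase of liver, was also higher, with a ratio of 1.38 (15.7 and 21.7) as deposited and 1.63 after centring, and is named after its value was seen. Many of these genes are also targets of SREBP factors, so the list does not isolate the response to insulin, and insulin, glucose and feeding state were not measured. The list was written with earlier results of these data known, and the study had reported Srebp, Acly, Fasn and Acc higher in WT. Its contrast with all genes is therefore a description and no independent support.

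**Figure D4:**
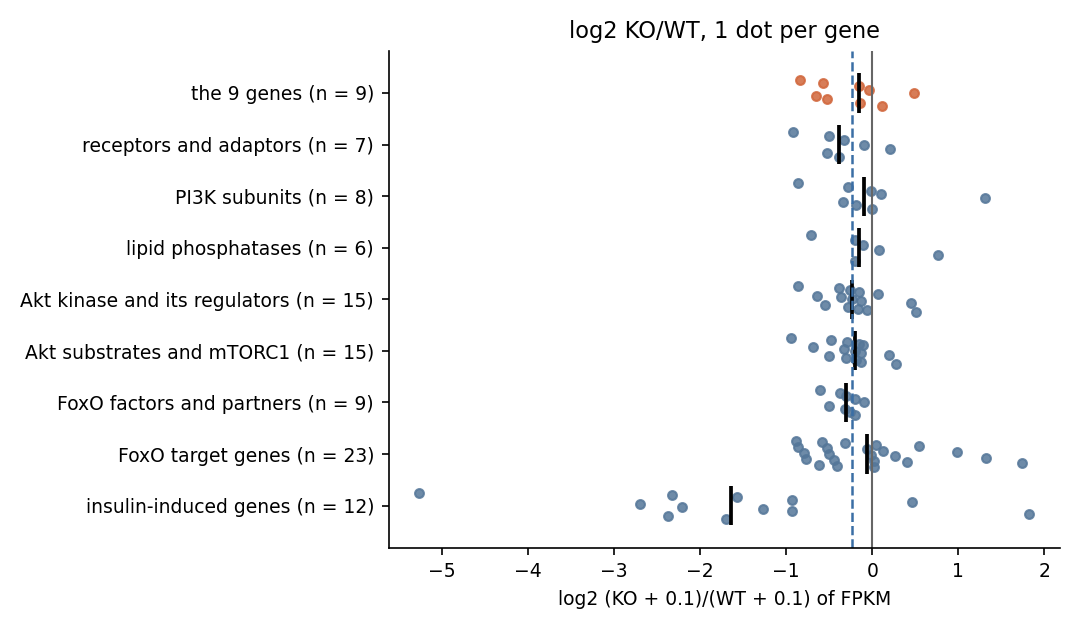
log2 KO/WT of FPKM, with 0.1 FPKM added to each value, for the 9 genes (orange) and the expressed genes of each pathway list (blue), 1 dot per gene. Black bars are medians and the dashed line is the median of all genes at -0.24. The insulin-induced genes had a median of -1.64, while the signalling lists lay near the dashed line. The lists were written with earlier results of these data known.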

How the data were processed

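Liver RNA-sequencing libraries, 1 per genotype, were compared. The authors aligned reads with TopHat 2.0.0 to NCBI37 (mm9), assembled transcripts with Cufflinks 1.3.0 and estimated 1 FPKM per locus and library with Cuffdiff, per the methods and the submitters' processing notes. Reads are called single end in the methods and paired end in the labels. The annotation and any quartile normalization are not given in the sources used here. The authors' table also holds their own fold changes, test statistics, p-values and q-values, which were not used.

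Of 38016 loci, 21 marked HIDATA, each listed at 0 in at least 1 library, were left out. Rows naming several symbols counted for each, and rows of a symbol were summed. Ratios are of FPKM as deposited. List medians used a pseudocount of 0.1 FPKM, which understates low genes, and a mean FPKM of at least 1. Fragments were estimated from 482 (WT) and 465 (KO) low values of single-exon genes and the longest GENCODE vM1 (NCBIM37) transcript. Intervals are exact binomial (Clopper-Pearson). The steps were tested on simulated libraries. Locus coordinates are on NCBI37, counted from 1, and promoters are from RefSeq on GRCm38.p6. Calculations used Python 3.11.15 with pandas 2.3.3 and numpy 2.4.6, intervals used scipy 1.17.1, and plots used matplotlib 3.10.9.

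The members and lists were chosen with earlier results of these data known. Named genes were the members, Ppard, the paralogs compared and, in each list, the most abundant gene, those with the lowest and highest ratio among genes reaching 1 FPKM in each library, and those past 2-fold. Some genes that the rule names are not reported here. Alternatives covered scaling, fold limit, pseudocount, filter, rows per gene and transcript length.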

Additional observations from a re-analysis of the deposited data

How the results depend on the processing

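With 1 library per genotype, no replicate could be left out. No paired analysis was possible because each genotype has a single library. Scaling decided most of what changed. Centring on the median of all genes and equal upper quartiles each left 1 of the 9 genes lower and 1 higher in KO by more than 1.5-fold, in place of 2 and 0, and turned Insr, Pdpk1 and Akt2 to slightly higher in KO, while equal sums of FPKM moved no count of the 9 genes. With a fold limit of 2, 0 of the 9 genes were lower. Over all pathway lists, 24 genes were lower and 6 higher as deposited, with a median log2 KO/WT of -0.28. Centring gave 11 higher and a median of -0.0549, and equal upper quartiles 11 higher and -0.0370. The share of all genes lower by more than 1.5-fold went from 19.9% to 12.1% after centring, 11.7% with equal upper quartiles and 8.69% with a limit of 2-fold. The share higher went from 4.2% to 7.3%, 7.63% and 1.77%. The pseudocount moved no median of the 9 genes or of all pathway lists beyond an interval of that median taken from the ranks of its genes. The choice of row per gene could move no ratio of a member, since each member has a single row. With the median transcript length in place of the longest, each interval of a member's KO/WT ratio that excluded 1 still did. The intervals of ratios between related genes were not recomputed at that length. As deposited, the counting intervals of Insr and Irs1 included 1. That holds for the deposited scaling only, since centring put their ratios at 1.15 and 1.28. Variation from mouse to mouse was not measured.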

Other observations

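Of the 115 pathway genes in the table, 20 averaged less than 1 FPKM, and those named here were chosen after their values were seen. Igf1r rested on an estimated 46 fragments in WT against 29 in KO, and its KO/WT ratio of 0.64 had bounds of 0.382 and 1.03, which include 1. Grb10, an adaptor that inhibits the insulin receptor, measured 1.04 FPKM in WT against 0.502 in KO. Its ratio was 0.481 (interval 0.389 to 0.595). Phlpp2, a phosphatase that acts on Akt, measured 0.724 against 0.349, and Tbc1d4, an Akt substrate known for glucose transporter traffic, 0.573 against 0.272. Inpp4b, a lipid phosphatase related to Inpp4a, was higher in KO like that gene, at 0.135 FPKM in WT against 0.344 in KO, or 2.54-fold (interval 1.74 to 3.78). Irs4 was listed at 0 in both libraries.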
